A study of Gasterosteus aculeatus with 36 samples.

Results

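The genes described here are the sodium, potassium and calcium channel genes of the threespine stickleback (*Gasterosteus aculeatus*) whose symbols begin with *scn*, *kcn* or *cacn* followed by the letters and number of a channel subunit. 115 of the 24388 genes in the deposited table of normalized read counts carried such a symbol. They were sorted by symbol into 14 families. Most form or attach to voltage-gated channels, but the inward rectifiers (*kcnj*) and the two-pore-domain subunits (*kcnk*) have no voltage sensor, the small-conductance subunits (*kcnn*) open with calcium alone, and the auxiliary subunits form no pore. A further 25 genes that a RefSeq gene table names as channel subunits are listed in the deposited tables only under LOC identifiers and are not among the 115.

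RNA was sequenced from 36 whole fish in 12 groups of 3: males and females at embryonic stages 17, 20 and 23, and at 0, 4 and 8 days post hatching (dph, written dah in the labels). The fish were untreated and laboratory-raised, and larvae ate brine shrimp after hatching. The study as a whole used progeny of fish caught in the wild off Washington (USA) and Japan. Neither the labels nor the sequencing methods say which of these the 36 fish came from. Each fish was sampled once, and stage and sex were taken from the sample labels. The experiment was made to follow expression in males and females before and after sex is determined, and channel genes were not its aim.

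An ion channel gene is read out here from all tissues of the fish at once. In nerve and muscle, voltage-gated sodium channels open first and drive the rise of the action potential, potassium channels end it and set the resting potential, and calcium channels turn the change in voltage into transmitter release, contraction or gene expression. Each pore is built from a large subunit (or from several that assemble) and is steered by auxiliary subunits that change its gating and carry it to the membrane. Teleost fish kept many of these genes as pairs after an ancient genome duplication, which the letters a and b at the end of a symbol mark.

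Counted reads per fish ranged from 8637205 to 52089185, with a median of 23246848. Values are normalized read counts, that is the reads counted on a gene divided by a size factor for the fish, and they are not divided by transcript length, so levels are compared between stages and sexes within a gene and never between genes. The 10 most abundant genes took a median of 6.12% of counted reads at stage 17 and 11.7% at 8 dph. The channel genes together took a median of 0.0183%, 0.0443% and 0.122% of counted reads at stages 17, 20 and 23 and 0.167%, 0.195% and 0.225% at 0, 4 and 8 dph. In whole fish, fewer cells of a type and less RNA per cell cannot be told apart. The first male at 4 dph had the highest value of its stage in 41 of the 115 channel genes and in 20.52% of all genes. The lowest value of the stage came from the second male at stage 20 in 53 of the 115. It came from the third female at 8 dph in 52 and from the second male at stage 23 in 47. For all genes the lowest fish were not counted.

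Differences were tested with edgeR's quasi-likelihood test across 22168 genes, of which 113 were channel genes, and a gene was called at a Benjamini-Hochberg adjusted p under 0.05 over all tested genes. *kcnf1b* and *kcnk7* had too few reads to be tested. The 5 df test over the stages called 113 of the 113 channel genes, and it called 96.8% of all tested genes.

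Between the first and the last stage the channel genes rose almost as a body. At 8 dph against stage 17, 107 of 113 were higher and 2 were lower, whereas 48% of all tested genes were higher and 39.4% lower. The median log2 difference was 4.43 over the channel genes and 0.24 over all tested genes. 104 of the 107 were at least 2-fold higher and neither of the 2 was 2-fold lower, against 38.2% and 23.9% of all tested genes. The median over the channel genes was also 4.43 with the 3 genes that had no read in any fish at stage 17 set to their lower bound. A further 12 channel genes had 1 to 3 reads over the 6 fish at stage 17, so their fitted log2 differences depend on the prior count that the fit adds.

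The rise was spread over 4 of the 5 steps between neighbouring stages and then nearly stopped. 73 channel genes were higher and 10 lower at stage 20 against stage 17, where 34.3% of all tested genes were higher and 30.1% lower. At stage 23 against stage 20 the counts were 83 higher and 2 lower (30.2% and 28.1% of all tested genes). The step called hatching here, that is 0 dph against stage 23, gave 84 higher and 3 lower (33.7% and 24.7%). It spans the embryonic days after stage 23 as well as hatching itself, and the steps differ in length. 58 were higher and 6 lower at 4 dph against 0 dph (24% and 24.4%). At 8 dph against 4 dph 4 were higher and 0 lower, against 8.44% and 9.47% of all tested genes. Of the 113, 8 were higher and 7 lower in that last step at an unadjusted edgeR p under 0.05. That count was not made over all genes. DESeq2 called 1 lower. The median log2 difference of the channel genes in these steps was 1.71, 1.16, 0.83, 0.38 and 0.03, and that of all tested genes was 0.01, 0.01, 0.08, -0.01 and 0.00. When a 2-fold difference was also asked for, 64, 64, 48, 11 and 2 channel genes were higher from the first step to the last, against 21.6%, 15.9%, 15%, 8.16% and 2.3% of all tested genes. With the same limit 3, 0, 1, 1 and 0 were lower, against 6.89%, 4.22%, 3.55%, 3.38% and 1.37%.

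**Figure D1:**
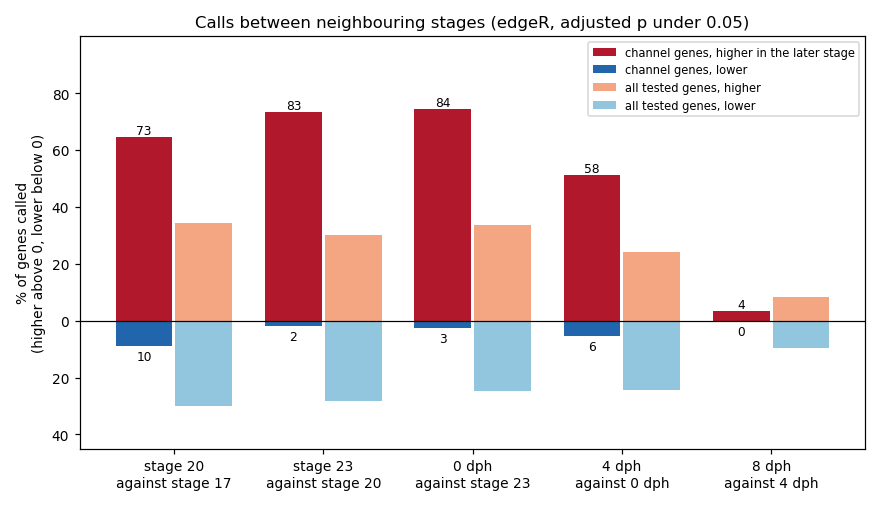
Percent of the 113 tested channel genes and of the 22168 tested genes called higher (above 0) or lower (below 0) in the later of a pair of neighbouring stages, with the number of channel genes on each bar. Channel genes were called higher 73, 83, 84, 58 and 4 times and lower 10, 2, 3, 6 and 0 times from left to right.

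Most channel genes reached their highest stage mean late. 64 of 115 had it at 8 dph (55.7%, against 27.5% of all 24388 genes), 28 at 4 dph (24.3% against 14.3%) and 18 at 0 dph (15.7% against 10.2%). 2 had it at stage 17 (1.74% against 31.5%), 1 at stage 20 (0.87% against 9.44%) and 2 at stage 23 (1.74% against 7.08%). The mean of 51 channel genes (44.3%) first reached 50% of its highest value at 0 dph, that of 24 at stage 23 and that of 20 at 4 dph. 8 (6.96%) were already at that level at stage 17, against 54.3% of all genes. The map of channel genes in all fish shows this as a shift of brightness to the right from stage 23 on.

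**Figure D2:**
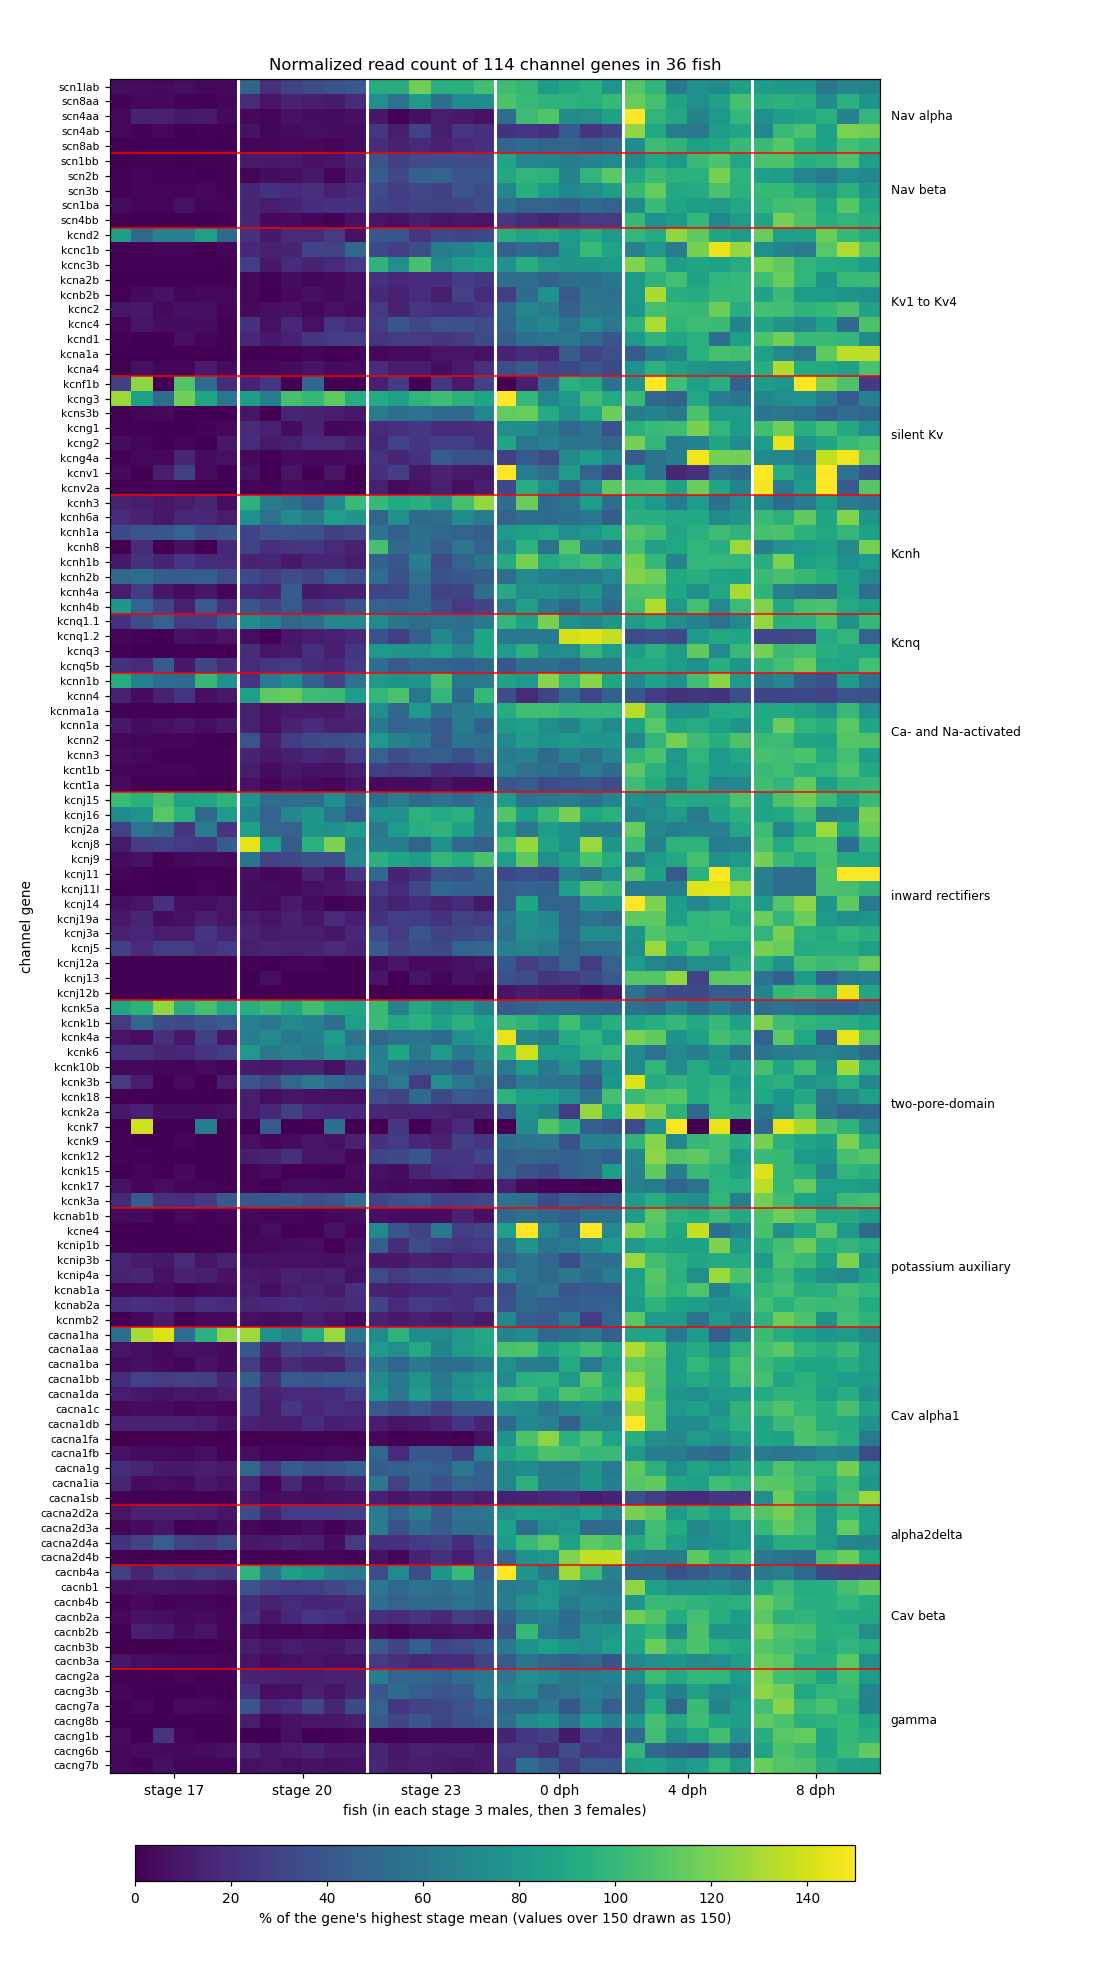
Normalized read count of 114 channel genes (down the page, by family) in each of the 36 fish (across, by stage, with 3 males and then 3 females in each), as a percent of the highest stage mean of the gene; values over 150% are drawn as 150%. Most rows are dark at stages 17 and 20 and bright from 0 dph, while *kcnk5a*, *kcng3*, *kcnj15* and *cacna1ha* are bright at stage 17.

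The families differed in when their members rose. At stage 20 against stage 17 the family median log2 difference was 3.32 for the gamma subunits, 3.27 for Kv1 to Kv4, 3.11 for the sodium channel beta subunits and 3.01 for the calcium- and sodium-activated potassium channels, but 0.33 for Kcnh, 0.48 for alpha2delta, 0.53 for the inward rectifiers and 0.78 for the potassium auxiliary subunits. The alpha2delta and inward rectifier families had their largest median at stage 23 against stage 20 (2.01 and 1.39), and the potassium auxiliary subunits at hatching (1.34). These are medians over 4 to 14 genes, and differences between families were not tested.

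**Figure D3:**
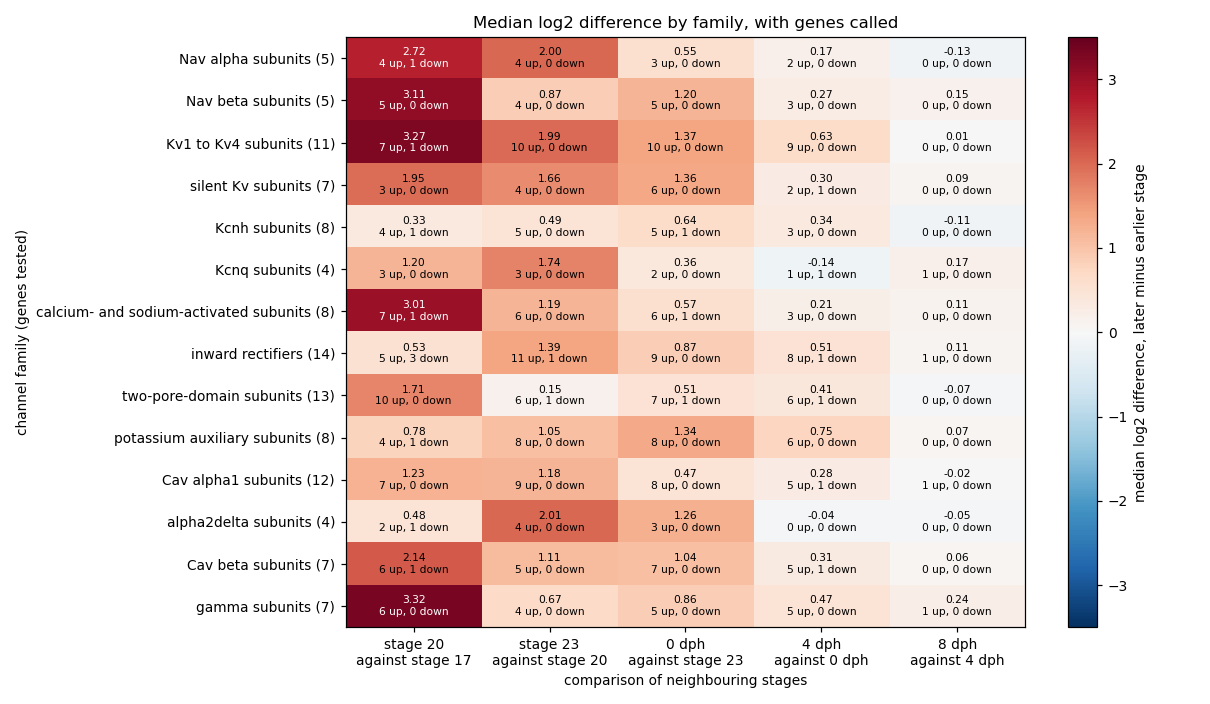
Median log2 difference of the tested genes of each family (rows, with the number tested) in each comparison of neighbouring stages (columns), with the numbers called higher (up) and lower (down) in the later stage. Red is higher in the later stage. The alpha2delta, inward rectifier and potassium auxiliary rows do not fade steadily from left to right. The last column is pale: at 8 dph against 4 dph each family median lies between -0.13 and 0.24.

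Among the pore-forming sodium channel genes, 5 of 5 were higher at 8 dph than at stage 17 (48% of all tested genes). Their log2 differences were 3.12 to 7.98. *scn8aa* and *scn8ab*, the copies of the Nav1.6 gene of central and motor neurons, differed in their course. The median normalized read count of *scn8aa*, with the range over 6 fish, was 91.3 (42.1 to 149), 605 (363 to 805) and 3271 (2498 to 3620.4) at stages 17, 20 and 23 and 4456 (4274 to 4848), 4325 (3366 to 5183) and 4189 (3280.3 to 4339) at 0, 4 and 8 dph. It rose at each step up to hatching (log2 differences 2.72, 2.31 and 0.55), and all fish at 0 dph lay above all fish at stage 23. No later step was called. *scn8ab* had 9.32 (3.41 to 16.8), 76.4 (51.2 to 115) and 473 (363 to 522) at stages 17, 20 and 23 and 1272 (1199 to 1323), 2417 (1889.8 to 2675) and 2606 (2245 to 2862) at 0, 4 and 8 dph. Neighbouring stages of this gene did not overlap up to 4 dph, and its step to 4 dph was still called (log2 difference 0.83, SE 0.119, adjusted p = 1.26e-06).

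*scn1lab*, whose human counterpart SCN1A is a neuronal channel mutated in epilepsy, had its highest mean before hatching, at stage 23. Its median was 30.9, 267 and 709 at stages 17, 20 and 23 and 692, 602 and 555 at 0, 4 and 8 dph (range at stage 23 698 to 876). Stage 20 and stage 23 were each called above the stage before them (log2 differences 3.07 and 1.48), and none of the 3 later steps was.

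The copies of the skeletal muscle sodium channel gene (Nav1.4) rose at different steps. *scn4aa* had a median of 147 (98.1 to 199.9) at 0 dph, against 14.6 (1.72 to 22.4) at stage 23 (log2 difference 3.51, SE 0.294, adjusted p = 2.08e-11). The 6 fish at 0 dph all lay above the 6 at stage 23. Before that it had been lower at stage 20 than at stage 17 (log2 difference -0.91, adjusted p = 0.0415). *scn4ab* gave 12.8 (4.25 to 31.7), 47.5 (23.26 to 70.0) and 215 (119 to 280.1) at stages 17, 20 and 23 and 228 (209 to 411), 824 (573 to 1200.0) and 1005 (665 to 1154) at 0, 4 and 8 dph. It was called higher at stages 20 and 23 and again at 4 dph against 0 dph (log2 difference 1.57, SE 0.209, adjusted p = 3.53e-07), where the ranges did not overlap, while its hatching step was not called (0.41, adjusted p = 0.0893).

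**Figure D4:**
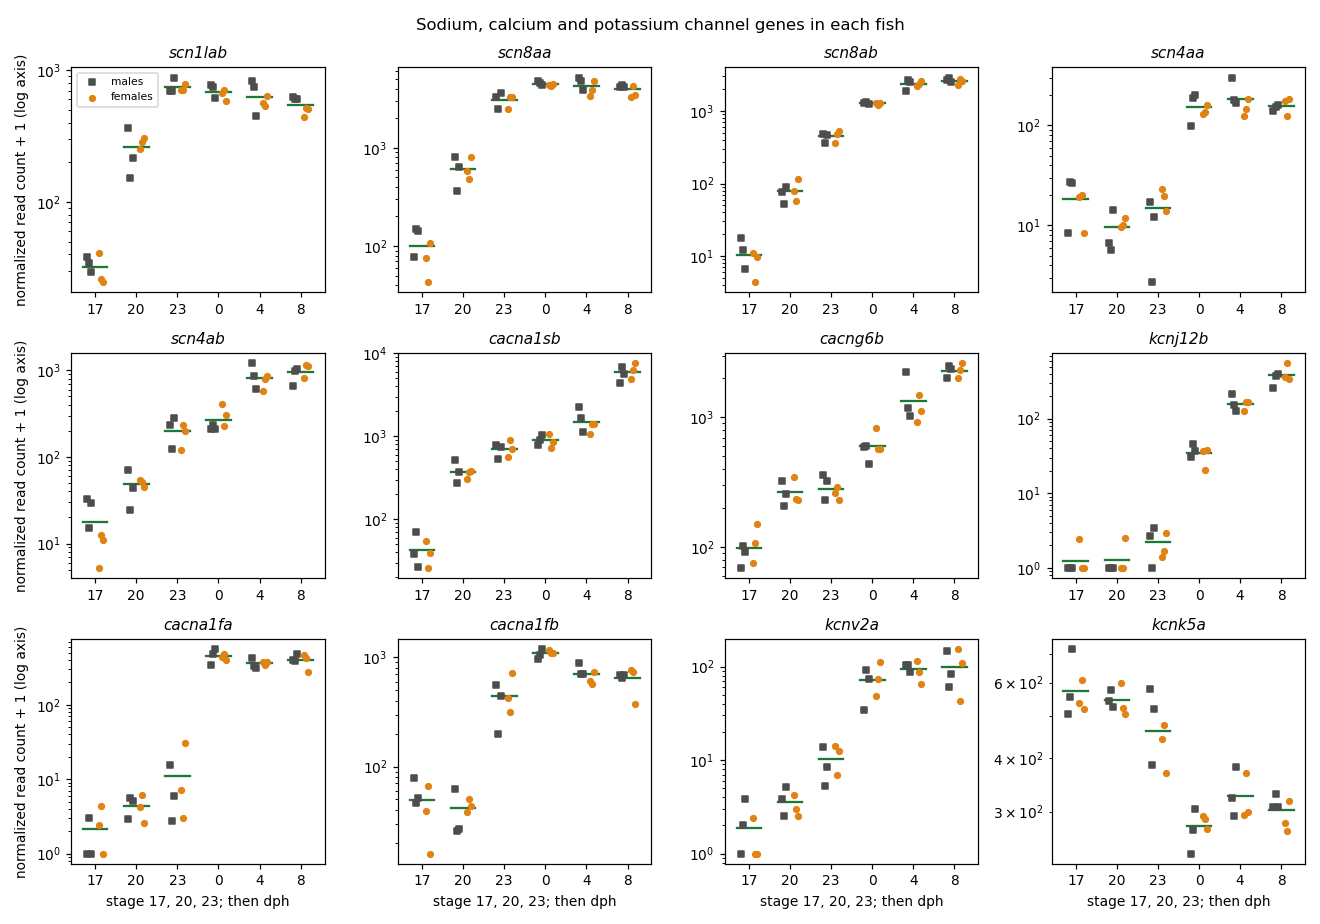
Normalized read count plus 1 (log axis) of 12 channel genes in each fish by stage; squares are males, circles females, and the green line is the mean of the 6 fish. *scn1lab* has no called step after stage 23, *scn4aa* and *cacna1fa* step up at 0 dph, *cacna1sb* has its last step at 8 dph, and *kcnk5a* falls at 0 dph.

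The sodium channel beta subunits are small membrane proteins that bind the pore subunits and also act in cell adhesion. 5 of 5 were higher at stage 20 than at stage 17 (34.3% of all tested genes) and 5 of 5 higher at hatching (33.7%). The median of *scn1bb* was 10.1, 153 and 508 at stages 17, 20 and 23 and 989, 1302 and 1481 at 0, 4 and 8 dph. *scn2b* had its larger values at hatching and at 4 dph, with 1394 (962 to 1599) at 0 dph, 1383 (1286 to 1707) at 4 dph and 1034 (895 to 1221) at 8 dph, and its last step missed the threshold although the fish of 8 and 4 dph did not overlap (log2 difference -0.45, adjusted p = 0.0767). *scn4bb* made a late step: it had 72.4 (60.4 to 88.6) at 4 dph, against 20.25 (13.5 to 22.1) at 0 dph (log2 difference 1.89, adjusted p = 4.45e-07), and 1 read in the 6 fish at stage 17. *scn3b* had medians of 5.66, 54.9 and 100.2 at stages 17, 20 and 23 and 236, 295 and 281 at 0, 4 and 8 dph, and *scn1ba* had 325 (286 to 352) at 8 dph, against 8.798 (7.09 to 21.2) at stage 17. Both were called higher at each step up to hatching, and *scn1ba* also at 4 dph (log2 difference 0.74).

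Kv1 to Kv4 subunits form the classical delayed rectifier and A-type potassium channels. 11 of 11 were higher at 8 dph than at stage 17 (48% of all tested genes). *kcna1a* and *kcna2b*, whose mammalian counterparts make the Kv1 channels of axons, were nearly silent at first. *kcna2b* had 2856 reads in the 6 fish at 8 dph, against 1 read in the 6 at stage 17, a normalized ratio of 2280.2 with a 95% exact interval of 409 to 90093 that covers counting error only. Its medians were 0, 15.6 and 94.6 at stages 17, 20 and 23 and 254, 461 and 477 at 0, 4 and 8 dph. Each step up to 4 dph was called. For *kcna1a* the ratio was 1677 (301 to 66253), from 2100 reads at 8 dph against 1 at stage 17, and its step to 4 dph was the largest of the family (log2 difference 1.52, adjusted p = 1.05e-07).

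The Kv3 genes, whose channels let neurons fire fast, did not move together. *kcnc3b* rose to 245 (135 to 372) at stage 20, against 10.1 (3.74 to 16.8) at stage 17, and again to 1103 (946 to 1408) at stage 23 (log2 differences 4.603 and 2.12). Its later steps lay between -0.06 and 0.17 and none was called. *kcnc2* was not called at stage 20 (-0.22) and was called at each of the next 3 steps (log2 differences 1.99, 1.436 and 0.71). *kcnc4* rose at each step up to 4 dph, to 111 (75.0 to 145) at 4 dph, against 5.66 (1.25 to 10.1) at stage 17.

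Kv2 and Kv4 genes complete this family. *kcnd2* (Kv4.2, an A-type channel) had 24.7 (9.20 to 34.3) at stage 20, against 90.6 (69.8 to 116) at stage 17 (log2 difference -1.96, SE 0.215, adjusted p = 2.47e-09), with no overlap, and it was the channel gene that fell most in that step. It then rose at stage 23 and at hatching and ended at 132 (116 to 159) at 8 dph. Its excess at 8 dph over stage 17 was small (log2 difference 0.48, adjusted p = 0.0204), and that call was lost without any one of 3 libraries (adjusted p = 0.0621 to 0.0649) and within either sex. The other Kv4 gene, *kcnd1*, went up at stage 20 instead (log2 difference 3.70) and had 184 (131 to 214) at 8 dph, against 1.40 (0 to 11.3) at stage 17. *kcna4*, an A-type Kv1 gene, and *kcnb2b*, a Kv2 gene, were not called at stage 20 (-0.17 and 0.22) but at each of the next 3 steps, and ended at 135 (123 to 191) at 8 dph and 232 (212 to 287) at 8 dph.

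The silent subunits (*kcnf*, *kcng*, *kcns*, *kcnv*) open no channel alone and change Kv2 channels when they join them. 6 of 7 tested were higher at 8 dph than at stage 17 (48% of all tested genes). *kcnv2a*, whose human counterpart acts in photoreceptors, had 72.4 (33.1 to 111) at 0 dph, against 9.47 (4.301 to 13.1) at stage 23 (log2 difference 2.95, adjusted p = 1.34e-08), and did not change beyond that by a called step. *kcns3b* was highest at hatching, with 81.7 (58.5 to 91.6) at 0 dph. *kcnv1* had a value of 80.9 in 1 male at 0 dph, where the median of the 6 fish was 14.6. *kcng1* and *kcng2* had 81.1 (59.6 to 95.0) at 8 dph and 67.6 (56.6 to 104) at 8 dph, against 0.973 (0 to 2.49) at stage 17 and 1.72 (0 to 7.48) at stage 17. *kcnf1b*, which was not tested, had at most 11.8 in any fish. *kcng3* ran the other way, with 35.4 (22.9 to 40.1) at 8 dph, against 45.6 (28.3 to 67.2) at stage 17 (log2 difference -0.56, adjusted p = 0.0284). The ranges overlapped, and the call was lost with another scaling, with DESeq2 (adjusted p = 0.0546), without any one of 4 libraries (up to 0.16) and within either sex.

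Kcnh subunits (eag, erg and elk channels) had the lowest median log2 difference of the 14 families at 8 dph against stage 17, 2.32. Still, 8 of 8 were called higher (48% of all tested genes). *kcnh6a* and *kcnh2b* encode erg channels, and *kcnh6a* repolarizes the heart in zebrafish. *kcnh6a* rose once early, to 149 (115 to 174) at stage 20, against 32.2 (19.8 to 37.3) at stage 17 (log2 difference 2.25), and once late, at 4 dph (0.66). The summed level of 7 heart marker genes had its highest median at stage 20, whereas *kcnh6a* had its highest mean at 8 dph. The sum was 2609.7 (2312 to 2952) at stage 20, against 715 (686 to 815) at stage 17, and 1949.9 (1289.8 to 2335) at 8 dph. Its part in the values of *kcnh6a* was not tested. *kcnh2b* had 429.9 (312 to 468) at 8 dph, against 196 (155 to 235) at stage 17 (log2 difference 0.952, adjusted p = 6.75e-09). *kcnh3*, an elk gene, peaked before hatching at 209.7 (178 to 270.3) at stage 23 and was lower at 0 dph (log2 difference -0.51, adjusted p = 0.0343), a call that was lost without any one of 6 libraries (adjusted p = 0.0583 to 0.102) and within either sex. *kcnh1a*, an eag gene, had 403 (348 to 443) at 8 dph, against 163 (137 to 197) at stage 17. Its copy *kcnh1b* rose further, to 103 (89.9 to 143) at 8 dph, against 21.4 (12.1 to 28.3) at stage 17 (log2 differences 1.76 at stage 23 and 1.06 at hatching). The elk genes *kcnh4a*, *kcnh4b* and *kcnh8* had stage medians of at most 60.6, 55.8 and 21.6, in each case at 4 dph.

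In the Kcnq family (Kv7), *kcnq3* and *kcnq5b* belong to the neuronal M-current genes and *kcnq1.1* and *kcnq1.2* are copies of the gene of heart and epithelia. *kcnq3* had 3 reads in the 6 fish at stage 17, rose to 104 (92.3 to 115) at stage 23 and then lay between 93.7 and 155 in all fish after hatching. The medians of *kcnq5b* were 66.6, 71.7 and 161 at stages 17, 20 and 23 and 178, 280.2 and 329 at 0, 4 and 8 dph. *kcnq1.1* was 1 of the 4 channel genes called higher at 8 dph against 4 dph (154 (119.8 to 197) against 114 (88.5 to 143), log2 difference 0.44, adjusted p = 0.0375), with overlapping ranges. *kcnq1.2* was highest at hatching and fell to 73.0 (40.7 to 112) at 4 dph, against 121 (72.6 to 176) at 0 dph (log2 difference -0.80, adjusted p = 0.00102). The wide ranges of *kcnq1.2* come with a difference between the sexes that is described further on.

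Potassium channels opened by internal calcium or sodium include *kcnma1a* (the large-conductance BK channel), the *kcnn* genes (small and intermediate conductance) and the *kcnt1* pair (sodium-activated Slack channels). *kcnma1a* had 20.503 (13.1 to 31.2), 194 (132 to 288) and 1180.0 (919 to 1463) at stages 17, 20 and 23 and 1802 (1679.6 to 1893), 1662 (1375 to 2417) and 1604 (1372 to 1836) at 0, 4 and 8 dph. Each of the first 3 steps was called and separated all fish of the later stage from all fish of the earlier one. *kcnt1a* and *kcnt1b* parted at stage 23: *kcnt1b* rose there (log2 difference 1.49) and *kcnt1a* did not (-0.03), after which *kcnt1a* rose to 41.5 (36.6 to 46.4) at 0 dph, against 4.91 (3.85 to 8.49) at stage 23 (2.90). *kcnn4*, the intermediate-conductance channel of blood cells and epithelia in mammals, was the only gene of the family called lower at hatching: it had 47.7 (25.4 to 72.3) at 0 dph, against 141 (72.4 to 151) at stage 23 (log2 difference -1.30, SE 0.239, adjusted p = 2.85e-05). It had risen to 145 (118 to 163) at stage 20, against 16.7 (7.09 to 32.6) at stage 17. *kcnn1b* ended at 36.3 (23.6 to 51.1) at 8 dph, against 44.5 (32.6 to 62.6) at stage 17, which was not called (adjusted p = 0.0879), while its copy *kcnn1a* was called higher (log2 difference 3.61). *kcnn2* and *kcnn3*, the other small-conductance genes, went up early, by 4.15 and 2.89 at stage 20, and had 155 (131 to 166) at 8 dph and 249.8 (199 to 256) at 8 dph.

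Inward rectifiers hold the resting potential, and 12 of 14 were higher at 8 dph than at stage 17 (48% of all tested genes). The Kir2 genes *kcnj12a* and *kcnj12b* belong to the type that sets the resting potential of muscle. *kcnj12b* had 0 (0 to 1.42), 0 (0 to 1.53) and 1.18 (0 to 2.46) at stages 17, 20 and 23 and 35.8 (19.6 to 44.6), 159.5 (125 to 216) and 370.1 (257 to 549.8) at 0, 4 and 8 dph. The fish of 0, 4 and 8 dph did not overlap with those of the stage before them, and each of these steps was called (log2 differences 4.68, 2.16 and 1.23, the last with SE 0.214 and adjusted p = 2.19e-04). Over the whole course it had 2195 reads at 8 dph against 1 at stage 17, a normalized ratio of 1752 (314 to 69249). *kcnj12a* had no read in the 6 fish at stage 17 and was at least 91.8-fold higher at 8 dph, set against a floor of 3 reads over the group. *kcnj2a*, another Kir2 gene, had 49.0 (34.9 to 64.2) at 8 dph, against 20.21 (11.2 to 30.7) at stage 17, and was called higher at stage 20 but at no later step. *kcnj14*, also of the Kir2 type, was lower at stage 20 (-0.952, adjusted p = 0.0284) and then rose to 124 (90.1 to 176) at 0 dph, against 33.3 (19.2 to 39.4) at stage 23.

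The G protein-gated genes (*kcnj3a*, *kcnj5*, *kcnj9*) slow neurons and the heart when transmitters act. *kcnj9* reached 471 (416 to 530.1) at stage 23, and no later step was called. *kcnj3a* and *kcnj5* were called higher at stage 23, at hatching and at 4 dph, and *kcnj5* had first been lower at stage 20 (log2 difference -0.69). *kcnj13*, which shapes the stripe pattern of zebrafish, had no read at stage 17 and was at least 27.4-fold higher at 8 dph. *kcnj19a* ended at 96.5 (79.3 to 125) at 8 dph, against 9.50 (5.66 to 17.2) at stage 17.

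Among the ATP-sensitive channel genes, *kcnj8* had 44.4 (35.1 to 59.5) at stage 23, against 69.5 (34.0 to 111) at stage 20 (log2 difference -0.70, adjusted p = 0.0166), and this fall was lost with library totals alone, without either of 2 libraries (adjusted p = 0.0591 and 0.135) and within either sex. *kcnj11*, the pore of the channel that couples glucose to insulin release in the pancreas, had 116 (71.5 to 221) at 8 dph, against 1.08 (0 to 3.73) at stage 17. Its difference between 8 dph and stage 17 was called (log2 difference 6.32). The 6 genes listed as pancreatic islet markers were *ins*, *gcgb*, *pax6b*, *neurod1*, *isl1a* and *pdx1*. Their sum was 2739 (2503 to 3409.7) at stage 17, 5270 (4783 to 5877) at 0 dph and 4122 (3577 to 4536) at 8 dph. It was taken over the whole fish and is not a measure of islet cells alone. Its part in the values of *kcnj11* was not tested. *kcnj15* and *kcnj16*, known from kidney and other epithelia, were already expressed at stage 17 and were not called at 8 dph against it. *kcnj15* had 194 (162 to 224) at 8 dph, against 185 (167 to 204) at stage 17, and it had fallen to 103 (99.7 to 147) at stage 20 between them (log2 difference -0.64, adjusted p = 5.21e-05). *kcnj16* had 159 (117 to 212) at 8 dph, against 144 (91.0 to 198) at stage 17. The sum of 5 ionocyte and kidney markers was 5881 (5650.4 to 6373) at 8 dph, against 779.9 (709 to 975) at stage 17, and its part in these genes was not tested.

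Two-pore-domain subunits carry the leak current. 12 of 13 tested were higher at 8 dph than at stage 17 (48% of all tested genes), and 10 were already higher at stage 20 (34.3%). *kcnk1b* (a TWIK gene) was expressed throughout, with medians of 386, 689 and 972 at stages 17, 20 and 23 and 1000.5, 961 and 1006 at 0, 4 and 8 dph. *kcnk18* (TRESK, known from sensory neurons) had no read at stage 17, 7.28 (6.13 to 13.2) at stage 20 and 90.5 (60.4 to 112) at 0 dph, and was at least 139-fold higher at 8 dph than at stage 17. *kcnk17* (TALK-2) switched on after hatching: it had 31.7 (24.4 to 48.2) at 4 dph, against 0.764 (0 to 6.63) at 0 dph (log2 difference 4.67, SE 0.388, adjusted p = 3.92e-11). No step before that was called, and this was the largest difference of any channel gene at 4 dph against 0 dph.

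Other leak channel genes rose in 1 or a few steps. The TREK gene *kcnk10b*, whose channels respond to stretch and heat, had medians of 6.85, 26.2 and 116 at stages 17, 20 and 23 and 155, 183 and 222 at 0, 4 and 8 dph. *kcnk2a*, of the same type, made its main step at hatching, to 39.3 (14.5 to 68.9) at 0 dph, against 8.74 (7.31 to 9.36) at stage 23 (log2 difference 2.17), and *kcnk4a* at stage 20 (2.44), with no called step after it. Among the acid-sensitive TASK genes, *kcnk3b* had 29.2 (23.31 to 32.3) at 8 dph, against 2.58 (0 to 8.402) at stage 17, and *kcnk3a* had 188 (151 to 214) at 8 dph, against 43.6 (29.9 to 79.0) at stage 17. *kcnk9* and *kcnk15*, of the same group, and *kcnk12*, a THIK gene, each had 2 reads in the 6 fish at stage 17, and their normalized ratios at 8 dph were 160.5 (44.1 to 1329.6), 87.0 (23.804 to 723) and 176 (48.4 to 1458). *kcnk7*, which was not tested, had at most 5.42 in any fish.

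*kcnk5a* (TASK-2, which acts in epithelial transport in mammals) fell most among the channel genes over the whole course. Its values were 546 (506 to 716), 533 (506 to 598) and 459 (368 to 579.6) at stages 17, 20 and 23 and 279.7 (239 to 303), 310.4 (292 to 381) and 307 (269.6 to 329) at 0, 4 and 8 dph. All fish at 0 dph lay below all fish at stage 23 (log2 difference -0.72, SE 0.0977, adjusted p = 2.45e-07), and at 8 dph against stage 17 the log2 difference was -0.99 (SE 0.0993, adjusted p = 1.01e-10). Its smaller step at stage 23 (-0.27, adjusted p = 0.0178) was lost with library totals alone, without any one of 3 libraries (up to 0.0774) and in males alone. *kcnk6*, another TWIK gene, was highest at hatching and fell to 188 (158 to 215) at 4 dph, against 273 (229 to 389) at 0 dph (log2 difference -0.67, adjusted p = 2.57e-04).

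Auxiliary potassium channel subunits include the beta subunits of Kv1 (*kcnab*), the calcium sensors of Kv4 (*kcnip*), *kcne4* and the BK subunit *kcnmb2*. 8 of 8 were higher at stage 23 against stage 20 (30.2% of all tested genes), 8 of 8 at hatching (33.7%) and 6 of 8 at 4 dph (24%). *kcnab2a* had medians of 223, 197 and 283 at stages 17, 20 and 23 and 548, 981 and 1219 at 0, 4 and 8 dph. *kcnab1b* made its main step at hatching, with 151 (130.2 to 162) at 0 dph, against 16.9 (13.9 to 39.2) at stage 23 (log2 difference 2.95, adjusted p = 7.76e-13), while its copy *kcnab1a* had also been called at stage 20 (1.94). *kcne4* rose to 30.4 (23.25 to 61.3) at stage 23, against 1.71 (0 to 6.05) at stage 20 (log2 difference 3.85, adjusted p = 1.62e-07). *kcnip3b* fell at stage 20 (log2 difference -0.90) and then rose to 422 (394 to 568) at 4 dph. *kcnip4a*, another Kv4 sensor, ended at 266 (220.3 to 310.4) at 8 dph, against 40.6 (22.4 to 48.6) at stage 17. *kcnip1b* had 1.21 (0 to 2.80) at stage 17, 67.8 (50.7 to 118) at stage 23 and 253 (243 to 304) at 8 dph. *kcnmb2* had 129 (97.0 to 148) at 8 dph, against 3.90 (0 to 14.2) at stage 17.

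Among the pore-forming calcium channel genes, *cacna1sb* had the largest difference between 4 and 8 dph. It encodes the voltage sensor of skeletal muscle, which opens the ryanodine receptor and so couples excitation to contraction. Its values were 37.99 (25.0 to 69.9), 371 (276 to 524) and 718 (532 to 911) at stages 17, 20 and 23 and 873 (729 to 1070.4), 1413 (1077 to 2242) and 5937 (4374 to 7567) at 0, 4 and 8 dph. The lowest fish at 8 dph was above the highest at 4 dph (log2 difference 1.996, SE 0.182, adjusted p = 8.14e-09). At the same step *cacng6b*, a gamma subunit, had 2335 (2009 to 2611) at 8 dph, against 1149 (920.3 to 2257) at 4 dph (log2 difference 0.78, SE 0.172, adjusted p = 0.00183). Its ranges overlapped through 1 male at 4 dph, and in males alone the difference was not called (adjusted p = 0.141).

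The sum of 9 skeletal muscle markers was 3012 (1828 to 3768), 72252 (58391 to 94792) and 195062 (134757 to 236455) at stages 17, 20 and 23 and 677242 (598890.1 to 853815), 1073209.5 (956213 to 1241275) and 1417334 (1032154 to 1659551) at 0, 4 and 8 dph. *cacna1sb* was not called at hatching (log2 difference 0.35, adjusted p = 0.0883). The ranges of the marker sum were apart at hatching and overlapped between 4 and 8 dph, and the sum was not tested between stages. Its part in the rise of *cacna1sb* was not tested. *ryr1b*, the ryanodine receptor of skeletal muscle, had 6156 (4239 to 8891) at 8 dph, against 2027 (1558 to 3413) at 4 dph (log2 difference 1.52, SE 0.203, adjusted p = 3.50e-06). *ryr3*, *jph1a* and *jph2*, the last pair encoding junctophilins that hold the membranes of the coupling site together, were also higher (log2 differences 1.20, 0.81 and 0.77). *stac3*, which binds the calcium channel, was not called there (0.23) and had its main rise at stage 20 (5.41). *cacnb1*, the beta subunit of the same channel complex, had 1024 (941 to 1174) at 8 dph, against 804 (747 to 1286) at 4 dph, which was not called (adjusted p = 0.146). *cacng1b*, the gamma subunit of that complex, rose at hatching to 14.8 (6.20 to 18.7) at 0 dph, against 1.19 (0.851 to 1.443) at stage 23, and to 51.5 (32.4 to 64.8) at 4 dph (log2 differences 3.46 and 1.85).

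*cacna1fa* and *cacna1fb* are copies of the Cav1.4 gene, whose mammalian channel controls glutamate release at the ribbon synapses of photoreceptors. *cacna1fa* had 0.708 (0 to 3.41), 3.66 (1.53 to 5.04) and 5.55 (1.72 to 29.8) at stages 17, 20 and 23 and 457 (342 to 555), 354 (312 to 422) and 410.0 (275 to 481) at 0, 4 and 8 dph. Its step at hatching was the largest of all channel genes in any transition between neighbouring stages with more than 3 reads in the earlier stage (log2 difference 5.56, SE 0.337, adjusted p = 1.95e-14), and the 2 stages did not overlap. *cacna1fb* rose 1 step earlier, with 433 (197 to 724) at stage 23, against 40.2 (24.8 to 61.4) at stage 20 (log2 difference 3.40, adjusted p = 9.36e-12), and again to 1104 (964 to 1188) at 0 dph. It was then lower at 705 (576 to 888) at 4 dph (log2 difference -0.72, adjusted p = 0.00883), although not in males alone (adjusted p = 0.187). The alpha2delta gene of the same synapse has a pair in the fish. *cacna2d4b* had 781 (386 to 1061) at 0 dph, against 103 (18.9 to 191) at stage 23 (log2 difference 2.93), and *cacna2d4a* had 265 (208 to 284) at 0 dph, against 59.99 (50.5 to 85.1) at stage 23 (2.01).

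Photoreceptor markers rose over the same interval. The sum of 9 of them was 17424 (9726 to 19711) at 0 dph, against 694 (558 to 894) at stage 23, and it went on to 37113 (28925 to 41964) at 4 dph and 42638 (36261 to 47441) at 8 dph. *cacna1fa*, *cacna2d4a* and *cacna2d4b* had no called step after hatching, and *cacna1fb* was called lower at 4 dph (log2 difference -0.72). At stage 17, 6 of the 9 markers had no read in at least 1 fish. The part of the photoreceptor share of the fish in these values was not tested.

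Of the other 9 calcium channel pores, 7 were called higher at stage 20 or stage 23. Among all tested genes 34.3% were higher at the first of these steps and 30.2% at the second. The share higher at either was not counted. *cacna1aa* (P/Q-type, the main channel of fast synapses) had medians of 93.6, 480.4 and 1269 at stages 17, 20 and 23 and 1557, 1479 and 1559 at 0, 4 and 8 dph. It was called at stages 20 and 23 and at none of the later steps. *cacna1ba* and *cacna1bb* (N-type) were higher at both steps as well, by 1.94 and 1.63 for *cacna1ba* and by 0.67 and 0.82 for *cacna1bb* on the log2 scale. *cacna1c*, the L-type channel of heart and smooth muscle, was called at each step up to 4 dph and had 1166 (1013 to 1259) at 8 dph, against 43.9 (26.2 to 54.7) at stage 17. *cacna1da* and *cacna1db*, copies of the L-type gene of hair cells and neuroendocrine cells, separated in time. *cacna1da* rose to 893 (679.5 to 990.5) at stage 23, against 216 (158 to 305) at stage 20, while *cacna1db* had 90.2 (55.9 to 159) at stage 23, against 91.7 (80.3 to 136) at stage 20, and rose at hatching to 477 (322 to 507) at 0 dph (log2 difference 2.27, adjusted p = 5.03e-12). Of the T-type genes, which open near the resting potential, *cacna1g* and *cacna1ia* were higher at 8 dph than at stage 17, but *cacna1ha* was not called in any of the 6 comparisons: it had 217 (179.6 to 261) at 8 dph, against 280.0 (136 to 362) at stage 17.

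The summed level of neuron markers had its widest steps before hatching. The sum of 17 of them was 2625 (2368 to 2788), 17974 (14731 to 24226) and 34917 (30624 to 37540.2) at stages 17, 20 and 23 and 41588 (36713 to 44489), 55531 (43651 to 60565) and 56521 (51133 to 64501) at 0, 4 and 8 dph. Its ranges at neighbouring stages were apart up to stage 23 and overlapped at each later step. The sum of 4 glia and myelin markers came later, at 872 (608 to 1049.7) at 0 dph, 6075 (4521 to 6253) at 4 dph and 10925 (10065 to 12018) at 8 dph, and *kcna1a* and *kcna2b* were called higher at 4 dph but not at 8 dph. The sum of 7 hair cell markers was 804 (712 to 899) at 8 dph, against 315 (89.6 to 453) at stage 17. How far the number of neurons, glia or hair cells goes into the channel values was not tested.

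Of the alpha2delta subunits, *cacna2d3a* made 1 large step at stage 23, with 297 (201 to 349) at stage 23, against 15.2 (7.75 to 26.1) at stage 20 (log2 difference 4.11, SE 0.268, adjusted p = 7.26e-14), the largest of all channel genes in that comparison. *cacna2d2a* had medians of 177, 346 and 781 at stages 17, 20 and 23 and 1065, 1340.0 and 1383 at 0, 4 and 8 dph. *cacna2d4a* had fallen at stage 20, to 28.9 (13.1 to 62.9) at stage 20, against 75.9 (55.1 to 116) at stage 17 (log2 difference -1.27, adjusted p = 8.81e-06).

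Of the beta subunits, which carry the pore to the membrane, *cacnb4b* (the brain type) had medians of 27.0, 253 and 762 at stages 17, 20 and 23 and 989, 1398 and 1408 at 0, 4 and 8 dph and was called at each step up to 4 dph. Its copy *cacnb4a* had 66.5 (51.5 to 74.1) at 4 dph, against 126 (83.6 to 227) at 0 dph (log2 difference -1.15, SE 0.231, adjusted p = 1.50e-04), the largest fall of any channel gene in that step, with no overlap between the 2 stages. Over the same interval *cacnb4b* rose (log2 difference 0.37). *cacnb3b* gave 787 (729 to 874) at 8 dph, against 3.89 (0 to 7.48) at stage 17. *cacnb2b*, a copy of the beta subunit gene of the heart, rose at hatching to 178 (102 to 259.8) at 0 dph, against 16.999 (6.88 to 23.9) at stage 23 (log2 difference 3.49, adjusted p = 2.11e-11). Its fall at stage 20 (-1.16, adjusted p = 0.0183) was lost without 1 female (0.113) or 1 male (0.175) of stage 17 and in females alone. *cacnb2a*, its copy, had gone up at stage 20 (2.14), and *cacnb3a* had medians of 19.0, 31.6 and 98.0 at stages 17, 20 and 23 and 223, 355 and 486 at 0, 4 and 8 dph.

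Most gamma subunits in this set are AMPA receptor partners of neurons in mammals. *cacng8b* rose to 78.5 (27.9 to 98.3) at stage 20, against 1.14 (0 to 4.67) at stage 17, and to 311 (253 to 349) at stage 23 (log2 differences 5.29 and 2.01). *cacng2a* and *cacng3b* were likewise higher at both steps, by 3.49 and 1.92 and by 3.53 and 1.97. *cacng7b* took its main step at hatching (log2 difference 1.77), whereas its copy *cacng7a* had its own at stage 20 (3.32) and was not called at hatching (0.497, adjusted p = 0.0645).

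Genes that work beside these channels rose in most cases. Of 49 listed partner genes 31 were in the tables, and at 8 dph against stage 17, 27 were higher, 3 lower and 1 was not called, where 48% of all tested genes were higher and 39.4% lower. *nalcn*, the sodium leak channel, had 838 (672 to 929) at 8 dph, against 30.2 (18.7 to 36.8) at stage 17 (log2 difference 4.75, SE 0.182, adjusted p = 6.24e-21). *fgf14*, which binds sodium channel tails, was higher by 6.13 and *ank3a*, the ankyrin that anchors sodium channels in axons, by 3.49 on the log2 scale. The 3 that were lower were *hvcn1*, the proton channel, *ryr2b* and *tpcn1*, an endosomal channel (log2 differences -1.34, -2.04 and -1.45). At 8 dph against 4 dph 5 were higher and 2 lower, against 8.44% and 9.47% of all tested genes.

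Few channel genes were called between males and females. Over all stages 7 of 113 were called, all lower in males, where 6.13% of all tested genes were called and 4.04% were lower in males. With an unadjusted p under 0.05 the count was 11 of 113, against 9.57% of all tested genes. The 7 were *kcna1a*, *kcnc1b*, *kcng4a*, *kcnq1.2*, *kcnj11*, *kcnj11l* and *cacna2d4b*, with log2 differences (males minus females) of -0.97, -0.96, -1.07, -1.24, -0.89, -1.03 and -0.88. In the gene table of another stickleback assembly (fGasAcu3.hap1.1), *kcnc1b*, *kcnq1.2*, *kcnj11* and *kcnj11l* lie on the X chromosome, of which males have 1 copy and females a pair. The other 3 symbols have no match in that table, so their chromosome was not looked up. 98 tested channel genes lie on its other, numbered chromosomes and none of them was called. Calls were rare there in general: among all 18064 tested genes placed there, 24 were called lower in males and 68 higher. Of the 819 tested genes that the table places on X, 90.6% were called lower in males, with a median log2 difference of -0.97.

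The difference was present from embryo to larva in *kcnq1.2*, but not in each of the 7 at stage 17. There the male mean lay above the female mean in *kcnc1b* (8.95 against 8.33), *kcnj11* (1.58 against 0.795) and *cacna2d4b* (6.04 against 2.15). In the others it lay below. *kcnq1.2* had 74.2, 72.6 and 74.9 in males, against 173, 176 and 167 in females at 0 dph, and 42.4, 46.0 and 40.7 in males, against 99.9, 112 and 109 in females at 4 dph. All males lay below all females at each of the 6 stages, and the log2 difference over all stages was the largest of the 7 (SE 0.1202, adjusted p = 9.73e-11). 1 female at 8 dph, at 57.8, was closer to the males, which had 39.0 to 42.5, than to the other females (113 and 122). *kcnc1b* had 356, 432 and 339 in males, against 643, 783 and 681 in females at 4 dph (over all stages SE 0.0857, adjusted p = 1.25e-11). From stage 20 on its males and females did not overlap. *kcnj11l*, a second gene of the *kcnj11* type, had 197, 198 and 202 in males, against 455, 459 and 399.6 in females at 4 dph.

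*kcna1a* had 315, 258 and 227 in males, against 413, 495 and 495 in females at 8 dph (over all stages SE 0.122, adjusted p = 5.20e-08). The sexes were apart from stage 23 on, after too few reads at stages 17 and 20 to compare. *cacna2d4b* had 386, 595 and 620.4 in males, against 942, 1059 and 1061 in females at 0 dph. At stage 17, where its values were under 9, its 3 males lay above its 3 females. At stage 20 and from 0 dph on the males lay below, and at stage 23 the sexes overlapped. *kcng4a* had 121, 118 and 105 in males, against 231, 248 and 193 in females at 8 dph. *kcnj11* was the least regular, with 87.0, 71.5 and 72.4 in males, against 144, 206 and 221 in females at 8 dph, but overlapping sexes at stages 17 and 23 and at 4 dph.

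**Figure D5:**
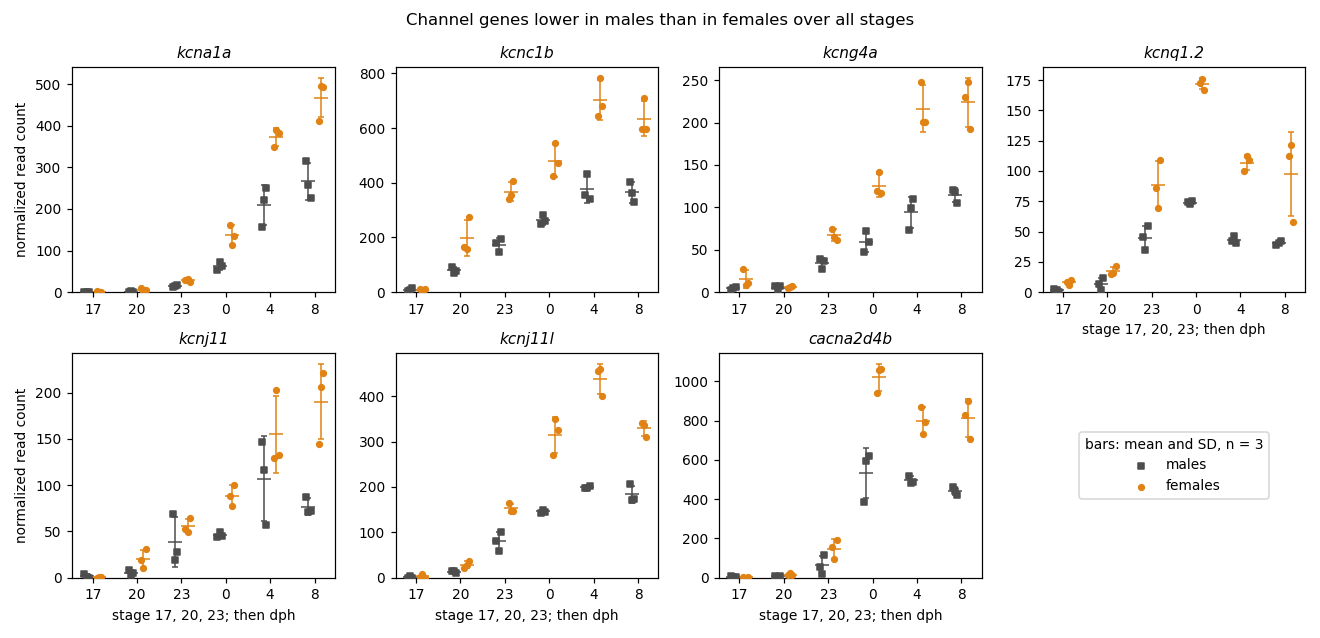
Normalized read count of the 7 channel genes called lower in males over all stages, in each male (squares, left) and female (circles, right) by stage; bars give the mean and SD of 3 fish. In *kcnq1.2* the 3 males lie below the 3 females at all 6 stages.

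Within single stages 1, 2, 5, 6, 5 and 6 channel genes were called from stage 17 to 8 dph, against 4.42%, 4.63%, 4.92%, 4.73%, 4.73% and 4.83% of all tested genes. DESeq2 called 1, 3, 7, 5, 5 and 6. Leaving out 1 library moved the edgeR counts to between 0 and 4 at stage 17, 1 and 4 at stage 20, 1 and 6 at stage 23 and 2 and 7 at 8 dph. At stage 17 it was 0 without the first female and 2 to 4 without any other fish of the stage but the first male. At stage 20 it was 1 without any one of 20 libraries and 4 without the second female. At stage 23 it was 1 without the first or the second male and 2 without the first or the third female, and at 8 dph 2 or 3 without any fish of the stage but the first male. No channel gene was called for a stage by sex interaction in edgeR, which called 0.0451% of all tested genes. 5 channel genes had an unadjusted p under 0.05, a count not made over all genes, and DESeq2 called 0. *kcnh4b* had a log2 difference of 0.42 (males minus females) over all stages and missed the threshold (adjusted p = 0.0557), though it passed with DESeq2. The p-values measure the spread between single fish, and nothing in the labels says whether fish of a group shared parents.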

How the data were processed

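Whole embryos and larvae were preserved in RNAlater, and stranded polyA libraries (TruSeq) were sequenced as paired ends on 2 lanes of a NovaSeq X Plus. Per the submitters' processing notes and the study's methods, the authors trimmed reads with Trimmomatic 0.39, aligned them with HISAT to the stickleback genome version 5 (GAculeatus_UGA_version5), kept uniquely mapped reads with SAMtools 1.17 and counted them on the reverse strand with HTSeq 2.0.2 against NCBI gene models. The deposited table of raw counts holds 25258 genes. The authors divided each count by 1 DESeq2 1.44.0 size factor per fish (R 4.4.1) and left out genes with fewer than 10 reads, which gave the deposited normalized signal for 24388 genes. Reads that match several gene copies equally well are not in either table, so near-identical copies may be undercounted.

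Levels were taken from the normalized table. Tests used the raw counts with edgeR 4.0.16 in R 4.3.3 (limma 3.58.1): TMM scaling, filterByExpr on the 12 groups, 1 fit over 36 fish with stage and sex as a single factor, quasi-likelihood F tests on the mean of both sexes (later minus earlier stage) or on males minus females, and Benjamini-Hochberg adjustment over 22168 genes at 0.05. The sex difference over all stages came from an additive model of stage and sex. SE is the size of the log2 difference divided by the square root of F. The fit was tested on simulated data. Alternatives were other scalings, filters, DESeq2 1.42.0, a replicate term, each sex alone and each library left out.

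The members and gene lists were chosen with earlier results of these data known. Named genes are the 3 most abundant of each family, the 10 largest and 10 smallest called differences between 8 dph and stage 17 with the same direction in both sexes, the 3 largest called rises and falls of each step, genes called between the sexes, and genes of known role; the remaining channel genes are given more briefly, and what is said of *kcnv1* was chosen after its values were seen. 1 channel gene is counted among the 115 and in all tests but is not reported by name here. Replicate numbers in the labels only name fish. No file or reference table used here holds sequences or coordinates of the build, and chromosomes come from the RefSeq table of another assembly by symbol, which matched 104 of the 115 genes. Python 3.11.15 with numpy 2.4.6, pandas 2.3.3 and scipy 1.17.1 was used for the tables.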

Additional observations from a re-analysis of the deposited data

How the results depend on the processing

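Of 163 counts of called channel genes under settings other than leaving out a library, 125 lay within 1.5 times the main count. No named gene changed sign in any setting. The 94 named results gave 741 fits under settings other than leaving out a library, of which 723 kept the call and 18 lost it. Asking for a 2-fold difference left 48 genes higher and 1 lower at 0 dph against stage 23, 11 and 1 at 4 dph against 0 dph, 2 higher at 8 dph against 4 dph, and 0, 3 and 0 lower at 8 dph against stage 17, stage 20 against stage 17 and stage 23 against stage 20. In females alone 38 were higher at 4 dph against 0 dph, and 1, 6 and 1 were lower at 8 dph against stage 17, stage 20 against stage 17 and stage 23 against stage 20. In males alone the counts were 36 higher and 3 lower at 4 dph, 2 higher at 8 dph against 4 dph, and 1 lower both at 8 dph against stage 17 and at stage 23 against stage 20. With library totals alone 1 was lower at 8 dph against stage 17, 6 at stage 20, 0 at stage 23, 5 at 0 dph and 1 at 8 dph against 4 dph; the median of all genes shifted by 0.13, 0.13 and -0.15 (log2) in the steps to stage 20, stage 23 and 0 dph. DESeq2's size factors and DESeq2 each left 1 lower at 8 dph against stage 17, and DESeq2 called 1 lower at 8 dph against 4 dph.

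Between the sexes, adjusting over genes not placed on X or Y left 3 channel genes over all stages and 0, 0, 0, 1, 1 and 0 from stage 17 to 8 dph, a setting that takes the 4 X-linked genes out. A fit on the 6 fish of the stage alone gave 0 at stage 17 and 1 at stage 20, where library totals and both wider filters also gave 1. With each library left out in turn, 106 to 107, 70 to 74, 78 to 85, 81 to 86, 48 to 59 and 3 to 5 genes were higher, and 1 to 2, 7 to 12, 1 to 3, 2 to 4, 4 to 7 and 0 to 2 lower, at 8 dph against stage 17 and then in the 5 steps in order. The lower count at 8 dph against stage 17 was 1 without the first male of 8 dph. Sex calls ranged over 0 to 4, 1 to 4, 1 to 6, 4 to 6, 4 to 6 and 2 to 7 by stage and 7 to 8 over all stages, and 113 to 114 genes passed the 5 df test. Without the first male at 4 dph 52 genes were higher at 4 dph against 0 dph.

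The replicate numbers were added as a replicate block. Same-numbered males and females of a stage deviated together (correlation over 0.1) in 7 of 18 pairs, with a mean of 0.0875 and a range of -0.13 to 0.49, so the numbers were not taken as pairs. At 0 dph all 3 pairs were over 0.1 (0.49, 0.28 and 0.24), and there the block left 6 genes between the sexes, as many as without it. The block gave 107, 72, 84, 84, 54 and 4 genes higher, 7 between the sexes over all stages and 1, 1, 4, 6, 4 and 5 by stage. Results of the 5 df test in each sex alone are not given here. Genes with 3 or fewer reads at stage 17 have no usable fold beyond the intervals given, and levels of genes with different lengths cannot be compared.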

Other observations

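Of the 25 channel genes that the tables list only by LOC identifier, 24 were tested, and at 8 dph against stage 17, 22 were higher, where 48% of all tested genes were. The other 2 were not called: LOC120823001 (*kcnk12l* in the RefSeq table) and LOC120814172 (*cacna1ib*) had log2 differences of -0.14 and -0.18. At stage 20 against stage 17, 9 were higher and 7 lower, where 34.3% and 30.1% of all tested genes were. LOC120821254 (*kcnj10a*, an inward rectifier known from glia and kidney) had 557 (507 to 819) at 8 dph, against 0.934 (0 to 4.05) at stage 17 (log2 difference 8.23). The 2 that were higher at 8 dph against 4 dph were LOC120828379 (*kcna7*, a Kv1 gene known from mammalian muscle), with 609.9 (578 to 694) at 8 dph, against 329 (235 to 531) at 4 dph (log2 difference 0.84, edgeR adjusted p = 0.00398), and LOC120828125 (*kcnj4*, a Kir2 gene), with 104 (72.5 to 127) at 8 dph, against 37.7 (31.8 to 56.0) at 4 dph (log2 difference 1.35, edgeR adjusted p = 4.24e-04).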
